A study of Mus musculus with 16 samples.

Results

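Gene expression in fraction B/C (Fr.B/C) was compared with that in fraction A (Fr.A) in the fetal liver of BALB/c mice at gestation day 16. The comparison rests on 8 of the 16 arrays of the series, 4 of fetal liver Fr.A and 4 of fetal liver Fr.B/C, chosen by tissue and fraction alone. In the nomenclature of Hardy, Fr.A holds pre-pro-B cells and Fr.B/C holds pro-B cells. Each of the 4 fetal liver sorts took the pooled embryos of 1 litter (8 on average) and gave 1 sample of either fraction, so arrays of the same number were treated as a pair. From each sample 100 ng of total RNA was amplified, labelled and hybridised to a dual-colour Agilent array against a reference RNA pooled from 6 cell lines. The sample carried Cy5 on arrays 1 and 3 and Cy3 on arrays 2 and 4. All mice were wild type and untreated per the labels. No source used here states the sorting gates. The other 8 arrays hold the same fractions of female bone marrow, from sorts of 16 mice. They are used below to show where the fetal liver difference departs from theirs. They also enter the estimate of the spread in the model described below, and so every fetal liver p-value.

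B lymphopoiesis begins in cells that still carry the receptors and homing molecules of multipotent progenitors, FLT3 and CSF1R among them. At the pre-pro-B to pro-B transition the factors E2A, EBF1 and PAX5 switch on the components of the pre-B-cell receptor (the surrogate light chain proteins VPREB and lambda 5, and the signalling chains CD79A and CD79B), while genes of other lineages are shut down. The fetal liver is the main site of this process before birth, and interleukin-7 is the main growth factor of pro-B cells.

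Values are log2 ratios of sample to reference, normalised by loess. A positive difference means a higher ratio in Fr.B/C. A gene passed when its Benjamini-Hochberg adjusted p was under 0.05 in a limma model with the sort as a block, fitted to all 20194 genes or unnamed transcripts measured in fetal liver. The error given with a fold change is the standard error (SE) of the model, over 4 sorts unless fewer are named. The spread behind it was estimated from the sorts of both tissues together, with information shared across genes. It is therefore not the scatter of the fetal liver sorts alone. RNA came from whole sorted samples, so fewer cells of a type and less RNA per cell cannot be told apart.

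Some arrays of a fraction resembled each other closely. Across genes, Fr.A arrays 3 and 4 correlated at r = 0.983, Fr.B/C arrays 1 and 2 at 0.981 and Fr.B/C arrays 3 and 4 at 0.979, whereas the other pairs within a fraction lay between 0.910 and 0.942. Arrays 1 and 2 of fetal liver were scanned in one session and arrays 3 and 4 in another. The 4 arrays of a fraction may therefore not stand for 4 independent samples, although the labels name 4 sorts. The p-values and standard errors measure a spread pooled over these arrays and those of bone marrow, part of which may be technical. With arrays 1 and 2 averaged and arrays 3 and 4 averaged, 3449 genes passed in place of 7218. With the model fitted to the fetal liver arrays only, 6353 passed. Median sample intensity was 71.2 to 109.1 per array, and 53.0% to 68.3% of spots were well above background.

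The fractions differed broadly. Of the 20194 genes, 7218 (35.7%) passed, 3261 (16.1%) higher and 3957 (19.6%) lower in Fr.B/C. Of these, 334 (1.65%) were at least 2-fold higher and 587 (2.91%) at least 2-fold lower. The 4 values of one fraction lay entirely above those of the other for 26.3% of genes. The median over all genes was -0.0013. The list counts below are to be read against the shares of 16.1% higher and 19.6% lower.

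The listed stage markers differed between the labelled fractions, though the lists were drawn up with earlier results of these data known. Of the 8 genes listed as pre-pro-B markers, all 8 were measured and all 8 fell, with a median log2 fold change of -3.29. Flt3, which encodes the receptor for FLT3 ligand, read 3.64, 2.91, 3.70 and 3.40 on the Fr.A arrays and 0.26, 0.16, 0.02 and 0.29 on the Fr.B/C arrays. No value of one fraction reached the range of the other, and the difference was -3.23 (SE 0.19, adjusted p = 6.23e-08). Cd34, which encodes a progenitor surface sialomucin, read 6.77, 6.52, 6.82 and 6.44 in Fr.A against 1.68, 1.83, 2.61 and 2.30 in Fr.B/C. The fall of 4.53 on the log2 scale (SE 0.18, adjusted p = 2.15e-09) again left the fractions apart, with Fr.B/C arrays 3 and 4 above arrays 1 and 2. Runx2, a runt-domain factor also expressed in plasmacytoid dendritic cells, showed the largest fall among the named genes. It went from 3.43, 2.78, 3.77 and 3.70 to -2.04, -2.16, -1.43 and -1.38, a difference of -5.17 (SE 0.14, adjusted p = 1.51e-10).

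Csf1r (the receptor for macrophage colony-stimulating factor, -2.62), Ccr9 (a chemokine receptor of the thymus and gut, -3.75), Ly6d (-3.36) and Cd7 (-1.90) fell as well. The 3 probes for Csf1r did not move equally, their differences running from -2.62 to -0.10. Siglech was not well above background on any Fr.B/C array, and its level in Fr.A was at least 2.24-fold higher.

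Of the 8 pro-B markers 7 were measured, of which 6 rose and 1 fell, with a median of 1.22. Pax5 had no probe that passed the filter on dim probes. Cd79a, a signalling chain of the receptor, stood at 0.88, 1.16, 1.56 and 1.58 in Fr.A and at 2.51, 2.51, 2.62 and 2.72 in Fr.B/C. The fractions did not overlap and the difference was 1.30 (SE 0.11, adjusted p = 1.76e-06). Blnk, the adaptor that couples the pre-B-cell receptor to calcium signalling, rose by 1.22. Ebf1, the factor that specifies the B lineage, moved less. It read 0.29, 0.09, 0.15 and 0.32 in Fr.A and 0.45, 0.59, 1.05 and 0.92 in Fr.B/C. The ranges did not overlap, and the difference was 0.54 (SE 0.10, adjusted p = 0.00135). With sorts 1 and 2 alone it was 0.33 (adjusted p = 0.0677). Rag1 was the marker that fell.

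**Figure D1:**
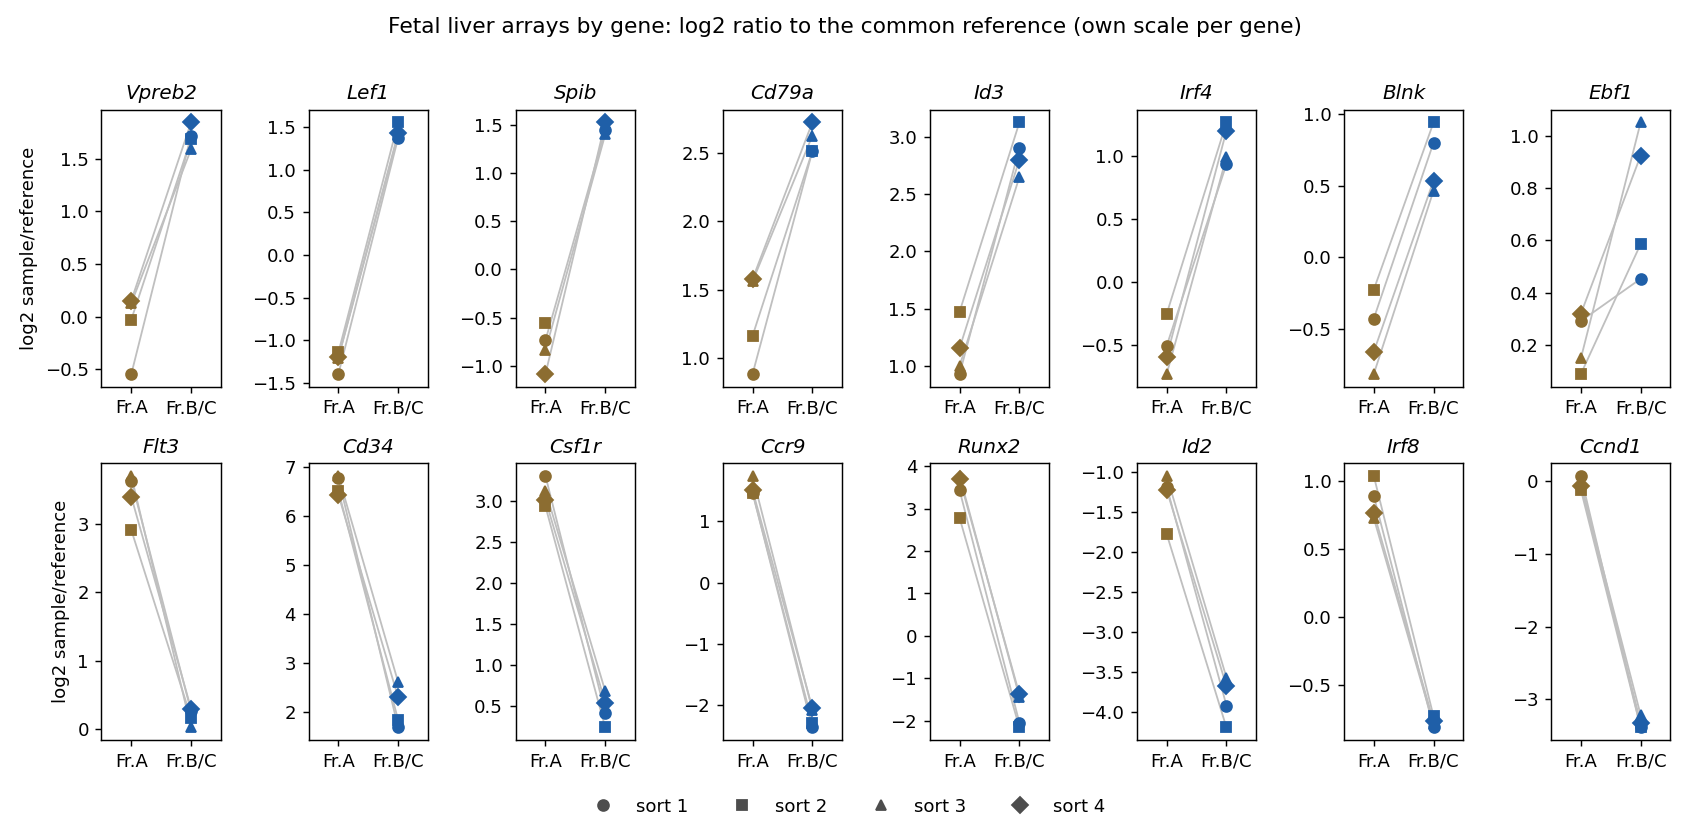
Log2 ratio of sample to reference on each of the 8 fetal liver arrays, for 8 genes that rose (upper row) and 8 that fell (lower row) in Fr.B/C. Each symbol is 1 array, grey lines join the samples of a sort, and every gene has its own scale. In every panel the Fr.A and Fr.B/C values (3 for Spib in Fr.B/C) lie apart, by the widest margin for Runx2 and Cd34 and the narrowest for Ebf1.

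Most genes of the surrogate light chain, the pre-B-cell receptor and its adaptors rose. Of 22 measured, 14 rose, 3 fell and 5 did not pass, and their median was 0.52. The windows of 250 bases before the start of Igll1 (chr16:16863986-16864235, minus strand), Vpreb1 (chr16:16869256-16869505, minus strand) and Vpreb2 (chr16:17980315-17980564, plus strand) are shown because these surrogate light chain genes all rose and because the last pair share a long run. The sequences are from RefSeq, build GRCm38.p6, and are written 5′ to 3′ on the strand of the gene. In Igll1 the capitals mark the only match to CCCNNGGG, a palindromic core of the EBF1 binding motif, which 11.8% of all 32851 promoter windows of this length contain. It begins 231 bases before the start. In Vpreb1 and Vpreb2, which have no such match in the window, the capitals mark the longest run that both share, 91 bases.
Igll1: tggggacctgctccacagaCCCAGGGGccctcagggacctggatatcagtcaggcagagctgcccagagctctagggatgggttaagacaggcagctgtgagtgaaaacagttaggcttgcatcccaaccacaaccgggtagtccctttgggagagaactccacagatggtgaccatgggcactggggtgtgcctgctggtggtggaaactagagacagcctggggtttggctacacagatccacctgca
Vpreb1: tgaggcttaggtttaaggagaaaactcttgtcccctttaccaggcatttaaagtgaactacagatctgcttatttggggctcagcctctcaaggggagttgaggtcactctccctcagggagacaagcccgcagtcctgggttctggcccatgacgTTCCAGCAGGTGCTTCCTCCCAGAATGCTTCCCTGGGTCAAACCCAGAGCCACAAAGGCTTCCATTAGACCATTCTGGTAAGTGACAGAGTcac
Vpreb2: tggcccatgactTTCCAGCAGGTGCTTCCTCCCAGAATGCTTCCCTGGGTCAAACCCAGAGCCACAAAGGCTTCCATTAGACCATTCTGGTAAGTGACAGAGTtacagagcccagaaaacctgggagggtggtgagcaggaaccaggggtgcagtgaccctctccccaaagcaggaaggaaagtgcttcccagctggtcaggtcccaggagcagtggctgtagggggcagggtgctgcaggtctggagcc

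Vpreb1 read -0.70, -0.13, -0.35 and -0.19 in Fr.A and 1.01, 0.73, 1.80 and 0.62 in Fr.B/C. Its probe was saturated on all 4 Fr.B/C arrays, so the fold is a bound, at least 1.85-fold (adjusted p = 0.000554). Vpreb2 read -0.55, -0.03, 0.13 and 0.15 in Fr.A and 1.72, 1.69, 1.59 and 1.84 in Fr.B/C, a rise of 1.78 (SE 0.14, adjusted p = 1.02e-06). Fr.B/C lay above Fr.A on every array for both genes. Since Vpreb1 and Vpreb2 are near-identical copies, their probes may share transcripts. Vpreb3, an assembly partner of the immunoglobulin heavy chain, was saturated in Fr.B/C and at least 2.97-fold higher. Cd79b was at least 1.70-fold higher, also by a saturated probe.

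Igll1, which encodes lambda 5, was measured by a dim probe. It was well above background on 1 of 4 Fr.A arrays and on all Fr.B/C arrays. The values were -0.22, -0.53, -0.43 and -0.48 in Fr.A and 0.08, 0.30, 0.29 and 0.02 in Fr.B/C. The fractions stood apart, and the difference was 0.59 (SE 0.11, adjusted p = 0.00134). With a smaller offset on the intensities it was 1.002, and with the scanner's processed signals 1.91.

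Signalling enzymes of the same list moved in both directions. Plcg2, the phospholipase of B-cell receptor signalling, fell by 0.99. The kinase genes Blk and Btk fell by 0.62 and 0.41, the latter with an adjusted p of 0.0852 when the array pairs were averaged. Prkcb, a protein kinase C, rose by 0.92, with 0.07 from a second probe.

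Transcription factors of the B lineage moved in both directions. Of 27 measured, 13 rose, 8 fell and 6 did not pass, and the median was 0.18. Lef1, the nuclear effector of Wnt signalling in pro-B cells, had the largest rise. Its values went from -1.39, -1.14, -1.20 and -1.20 to 1.38, 1.55, 1.41 and 1.43, with no overlap and little scatter, a difference of 2.68 (SE 0.15, adjusted p = 2.98e-08). Spib, an ETS factor, rose by 2.34 (SE 0.11, 3 sorts, adjusted p = 2.13e-08). Id3, an inhibitor of E proteins, rose from 0.93, 1.47, 1.00 and 1.16 to 2.91, 3.13, 2.65 and 2.80, a difference of 1.73 (SE 0.08, adjusted p = 9.45e-09). Id2, another inhibitor of E proteins that is active in natural killer (NK) and dendritic cells, went the opposite way. It read -1.19, -1.78, -1.05 and -1.23 in Fr.A and -3.92, -4.20, -3.57 and -3.68 in Fr.B/C, a difference of -2.53 (SE 0.15, adjusted p = 5.12e-08).

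The E protein genes Tcf3 and Tcf12 rose by 1.07 and 1.08. Irf4 rose by 1.63 while Irf8, a relative that also drives dendritic cell development, fell by 1.63. Ikzf3, which encodes Aiolos, rose by 1.30 and Ikzf1, which encodes Ikaros, fell by 1.40. For Ikzf3 and Tcf12 a dimmer probe gave 0.02 and -0.21. Pou2af1 (a coactivator of octamer factors, 1.06), Foxo1 (0.80) and Runx1 (0.83) rose. Spi1, which encodes PU.1, fell by 0.92, Mef2c by 1.12 and Arid3a, the factor named in the title of the series, by 0.99. The Arid3a values were 2.57, 2.10, 1.99 and 1.98 in Fr.A and 1.05, 1.09, 1.30 and 1.24 in Fr.B/C. Each Fr.B/C value lay below all 4 of Fr.A (SE 0.13, adjusted p = 5.97e-05).

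The V(D)J recombination machinery did not rise with the pre-B-cell receptor. Of 16 measured genes, 3 rose, 6 fell and 7 missed the threshold, with a median of -0.08. Over all genes tested 16.1% rose and 19.6% fell. Rag1, which encodes the recombinase, read 2.36, 1.76, 2.18 and 2.11 in Fr.A and 1.16, 1.03, 1.12 and 0.84 in Fr.B/C, and fell by 1.06 (SE 0.12, adjusted p = 2.24e-05). Its 3 probes gave -1.15 to -0.90. Rag2, the partner of Rag1, fell by 0.45 (adjusted p = 0.00157), or 0.0520 with the array pairs averaged. The end-joining ligase gene Lig4 rose by 0.56 (adjusted p = 0.00155) and Xrcc4, its cofactor, by 0.43, with -0.03 from a second probe. Without the sort as a block the adjusted p of Lig4 was 0.0512. Prkdc, the DNA-dependent protein kinase, fell by 0.34. With the array pairs averaged Xrcc4 and Prkdc did not pass (adjusted p = 0.0797 and 0.0972), and 2 genes of the list were lower in place of 6.

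Dntt, the terminal transferase that adds N nucleotides at junctions, was far below the reference in both fractions. It read -5.77, -4.64, -5.27 and -5.46 in Fr.A and -6.04, -5.48, -6.11 and -6.17 in Fr.B/C. The fractions overlapped. The difference of -0.66 (SE 0.14) passed with the block (adjusted p = 0.00288) and not without it (adjusted p = 0.287). A second probe gave -0.06.

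Genes of cytokine receptors and of cytokine signalling moved in both directions. Of the 21 measured genes in the list of interleukin-7, TSLP, FLT3 and KIT receptors and signalling, 8 rose, 7 fell and 6 did not pass, with a median of 0.05. With the array pairs averaged 5 rose. Il7r, which encodes the interleukin-7 receptor chain, read 1.39, 1.27, 0.78 and 0.83 in Fr.A and 0.87, 0.90 and 0.15 on the 3 usable Fr.B/C arrays. The fractions overlapped. The fall of 0.52 (SE 0.09, 3 sorts) passed with the block (adjusted p = 0.000888) and not without it (adjusted p = 0.153). Il2rg, the common gamma chain, fell by 0.40 (adjusted p = 0.0768 with the array pairs averaged). For Crlf2, whose product pairs with the interleukin-7 receptor chain in the TSLP receptor, the difference was 0.28 (SE 0.11). For Kit it was -0.49 (SE 0.20), and neither gene passed (adjusted p = 0.0691 and 0.0773). Without sort 2 both did, at 0.44 and -0.64 (adjusted p = 0.00587 and 0.0475). The receptor genes Il3ra and Csf2rb rose by 0.33 and 0.21 (adjusted p = 0.0239 and 0.0481). The Il3ra fractions overlapped, with a difference of -0.0014 in sort 2. Without the block Csf2rb did not pass (adjusted p = 0.125).

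The genes that JAK-STAT signalling is known to induce as its own brakes rose. Socs2 read -0.89, -0.94, -1.04 and -1.04 in Fr.A and 1.61, 1.66 and 1.41 on 3 Fr.B/C arrays, a rise of 2.52 (SE 0.08, 3 sorts, adjusted p = 1.47e-09). Cish read -0.15, -0.23, -0.26 and -0.11 in Fr.A and 1.07, 1.13, 1.77 and 1.71 in Fr.B/C, a rise of 1.61 (SE 0.14, adjusted p = 1.72e-06). Socs3 went from 0.22, 0.10, 0.08 and 0.04 to 1.43, 1.32, 1.82 and 1.66, a rise of 1.45 (SE 0.10, adjusted p = 2.65e-07). All 3 genes had every Fr.B/C value above every Fr.A value. Pim1, a kinase gene induced by STAT5, rose by 0.51 (SE 0.11, adjusted p = 0.00236). Its differences in sorts 1 to 4 were 0.89, 0.63, 0.33 and 0.21, and it did not pass in 5 of 23 alternatives (adjusted p up to 0.127).

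The 250 bases before the start of Socs3 (chr11:117969367-117969616, minus strand, RefSeq, GRCm38.p6) are shown for the match to TTCNNNGAA, the palindromic STAT motif, in capitals. It begins 154 bases before the start. The same motif is found in 7.02% of all windows, and the corresponding window of Cish has none.
Socs3: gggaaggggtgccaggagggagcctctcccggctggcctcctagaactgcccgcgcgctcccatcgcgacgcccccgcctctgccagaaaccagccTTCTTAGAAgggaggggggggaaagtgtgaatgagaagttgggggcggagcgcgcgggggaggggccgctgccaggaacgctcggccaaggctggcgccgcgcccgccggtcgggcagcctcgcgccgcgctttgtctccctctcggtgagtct

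Survival genes of the Bcl2 family moved in opposite directions. Bcl2 fell from 0.65, 0.84, 0.41 and 0.55 to -2.42, -2.47, -2.59 and -2.54, a difference of -3.12 (SE 0.14, adjusted p = 4.01e-09). A second probe of Bcl2 gave -0.91. Bcl2l1, which encodes Bcl-xL, rose from -1.39, -1.70, -1.11 and -1.23 to -0.13, -0.31, 0.49 and 0.12. The difference was 1.40 (SE 0.08, adjusted p = 4.18e-08), and for both genes the fractions lay apart. The 3 probes of Bcl2l1 gave 0.48 to 1.40. Over the 14 measured members of the family 4 rose, 2 fell and 8 did not pass, with a median of 0.05.

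About as many mitotic genes rose as did not pass, and the cyclin genes Ccnd1 and Ccnd2 fell. Of 33 mitosis genes 16 were higher and 2 lower, with a median of 0.25, and none reached 2-fold. Plk1 (0.73) and Ccna2 (0.65) were among them. The list mean went from -0.05 and -0.09 to 0.28 and 0.29 in sorts 1 and 2, and from -0.10 and -0.07 to 0.01 and 0.04 in sorts 3 and 4, a smaller step. With the array pairs averaged 9 mitosis genes were higher and 1 lower. Of 33 DNA replication genes 8 were higher and 5 lower, with a median of 0.09, or 5 and 1 with the pairs averaged. Over all genes tested 16.1% were higher and 19.6% lower. Tyms and Rrm2, which serve nucleotide synthesis, both rose by 0.75. Among 17 measured D cyclins, CDKs and inhibitors 11 rose and 3 fell, with a median of 0.51. Those that rose included inhibitors, Cdkn2c by 1.85 and Cdkn2d by 1.26, as well as E2f2 by 1.46.

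Ccnd1, the gene of cyclin D1, stood at 0.07, -0.12, -0.04 and -0.07 in Fr.A and at -3.38, -3.38, -3.21 and -3.32 in Fr.B/C. The fall of 3.28 (SE 0.09, adjusted p = 1.31e-10) was among the largest in the comparison and had very little scatter. Ccnd2 fell by 1.13, Mycn by 1.89 and Myc by 0.67. Of 21 immediate early genes 12 rose and 1 fell, with a median of 0.42. Egr1 (1.82), Jund (1.21) and Dusp1 (1.08) led them. Of 18 glycolysis genes 1 rose and 4 fell, beside 16.1% and 19.6% over all genes tested. The largest change was that of Ldhb at -1.44.

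Genes of stem and progenitor cells fell without exception among those that passed. Of 22 measured, 15 were lower, none higher and 7 did not pass, and 10 fell at least 2-fold. The median was -0.87. Hoxa7 fell by 2.01 and the chromatin organiser Satb1 by 1.70. Chemokine receptors, integrins and homing molecules followed, with 14 of 22 lower, 3 higher and a median of -0.53. Itgax, which encodes CD11c, read 3.58, 3.28, 3.32 and 3.13 in Fr.A and 0.33, 0.18, 0.34 and 0.27 in Fr.B/C, a difference of -3.04 (SE 0.10, adjusted p = 4.74e-10). Itgb7, an integrin chain of gut homing, fell by 2.41.

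Antigen presentation and interferon genes also fell. In the MHC class II list 9 of 12 measured genes were lower and 2 higher, with a median of -0.83. H2-DMb1 (-2.66), H2-Aa (-1.91, with -0.60 from its second probe) and H2-DMa (-1.83) fell, whereas Ifi30, a lysosomal thiol reductase, rose by 1.49. Of 33 interferon response genes 18 were lower and 3 higher, with a median of -0.29. Tgtp1 (-1.94, with 0.01 from its second probe), Ifi47 (-1.46) and Irf9 (-1.33) fell, and Gbp2, a guanylate-binding protein gene, rose by 1.64. Of 17 Notch pathway genes 6 fell and 2 rose. Hes5, a Notch target, rose by 1.57 and Dtx4 fell by 1.66.

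Of 19 genes listed for Lin28b and let-7 targets, 9 fell and 4 rose, with a median of -0.11. Lin28b, which blocks let-7 maturation and is a hallmark of fetal lymphopoiesis, read 2.28, 2.26, 2.80 and 2.64 in Fr.A and 2.96, 2.66, 2.79 and 2.61 in Fr.B/C. The fractions overlapped and the difference of 0.26 (SE 0.12, adjusted p = 0.104) did not pass. It passed at 0.54 with sorts 1 and 2 alone (adjusted p = 0.0120) and at 0.26 with the mean of its probes (adjusted p = 0.0260), and was -0.018 with sorts 3 and 4 alone. Hmga2, a let-7 target of fetal progenitors, stood at 7.74, 6.86, 7.91 and 7.57 in Fr.A and at 4.96, 4.97, 5.57 and 5.40 in Fr.B/C. It remained far above the reference in both and fell by 2.29 (SE 0.12, adjusted p = 2.19e-08), or by 3.47 by a second probe. The RNA-binding protein genes Igf2bp2 and Igf2bp3 fell by 2.45 and 1.06. For Igf2bp1 the difference was 0.20 (adjusted p = 0.0441), with -0.006 from a second probe. It did not pass in 18 of 23 alternatives, the fit without the block among them (adjusted p = 0.343).

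**Figure D2:**
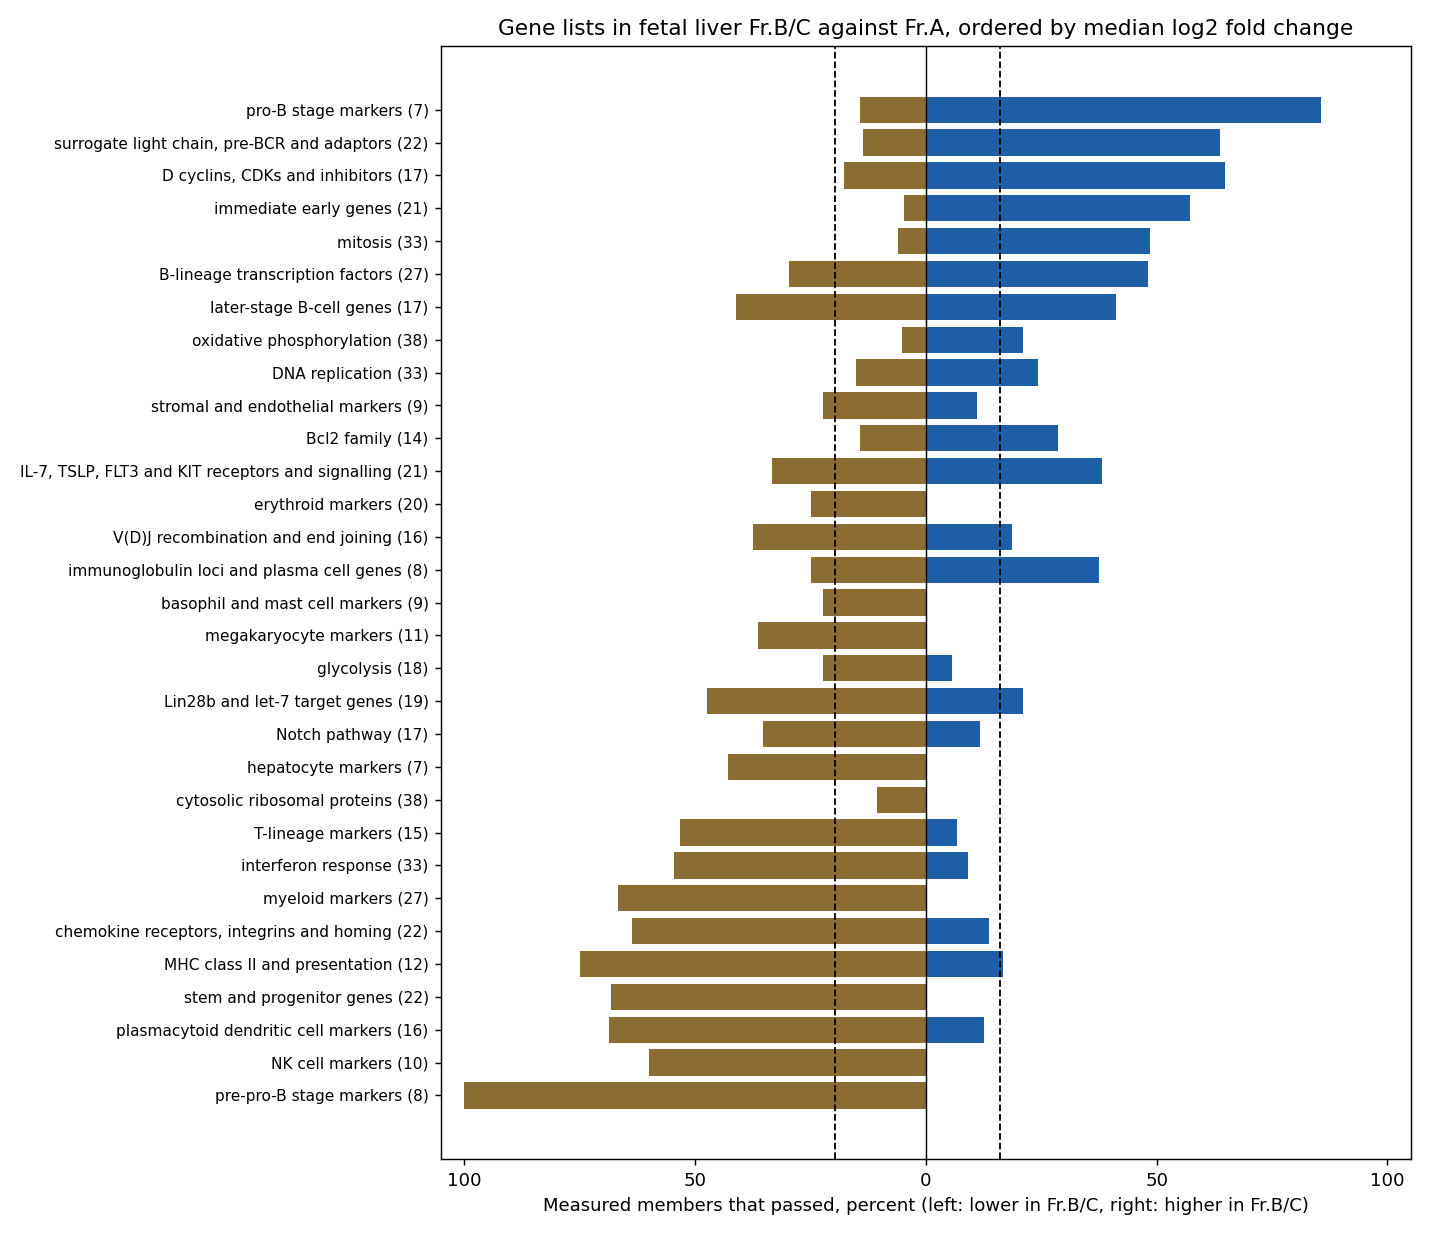
Share of the measured members of each gene list that passed, higher in Fr.B/C to the right and lower to the left, in percent, with the number measured in brackets. Dashed lines give the shares over all genes tested, 16.1% higher and 19.6% lower. Lists are ordered by their median log2 fold change, from pro-B markers (1.22) at the top to pre-pro-B markers (-3.29) at the bottom.

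Markers of other blood cells were measured beside these lists, since Fr.A is heterogeneous. Of 18 listed NK cell markers 10 were measured, of which 6 fell and none rose (median -1.53). The filter on dim probes removed the NK genes Ncr1, Eomes, Klrc1 and Klra8, which were dim on every array of both fractions. The counts therefore describe only the part of the list that could be measured. The mean over the 10 was 0.05 to 0.32 on the Fr.A arrays and -1.27 to -1.04 on the Fr.B/C arrays. Of the 10, 7 were still well above background on all Fr.B/C arrays. Klrd1, which encodes CD94, was not well above background on any Fr.B/C array and was at least 7.78-fold higher in Fr.A. Nkg7 fell by 2.15 and the Fc receptor gene Fcgr3, shared with myeloid cells, by 2.80. Of 16 plasmacytoid dendritic cell markers 11 fell and 2 rose (median -1.05), with a list mean of 0.55 to 0.70 in Fr.A and -0.64 to -0.45 in Fr.B/C. This list shares Siglech, Ccr9 and Runx2 with the pre-pro-B markers. Cox6a2 fell by 2.58.

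Of 27 myeloid markers 18 fell (11 with the array pairs averaged) and none rose (median -0.47), with a list mean of 1.33 to 2.12 in Fr.A and 0.70 to 1.27 in Fr.B/C. Mpo, the neutrophil granule peroxidase, read 6.87, 6.81, 7.03 and 6.70 in Fr.A and 3.51, 3.37, 4.63 and 4.68 in Fr.B/C. It fell by 2.80 (SE 0.29, adjusted p = 1.05e-05) and was still above the reference in Fr.B/C, more so on arrays 3 and 4. Cebpb fell by 2.12, with -0.36 from its second probe. Of 15 T-lineage markers 8 fell and 1 rose. Gata3 (-1.13), Tcf7 (-1.26, with 0.01 from its second probe) and Lck (-1.24) were among those that fell. The mast cell protease gene Cpa3 fell by 1.17, 1 of 2 among 9 basophil and mast cell markers. The part of these other cell types in the falls of the progenitor, homing, antigen presentation and interferon genes was not tested.

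Erythroid markers separated the sorts and not the fractions. Of 20 measured, 5 were lower, none higher and 15 did not pass, with a median of -0.01. Their mean was 1.37 to 2.51 in Fr.A and 1.42 to 2.34 in Fr.B/C. In either fraction arrays 3 and 4 lay above arrays 1 and 2. Nfe2, a factor of erythroid cells and megakaryocytes, read 2.57, 2.71, 3.70 and 3.71 in Fr.A and 1.67, 1.58, 3.47 and 3.46 in Fr.B/C. Its fractions overlapped, and the difference of -0.63 passed with the block (adjusted p = 0.00298) and not without it (adjusted p = 0.292). Tfrc, the transferrin receptor, fell by 1.20, with -0.68, -0.18, -1.90 and -2.05 in sorts 1 to 4. The deeper falls were those of sorts 3 and 4, which also share a scan session. A link to the erythroid markers, which stood higher in those sorts, was not tested. Of 18 listed hepatocyte markers 7 were measured and 3 of these fell, Dlk1 by 2.49 and Afp, alpha-fetoprotein, by 1.66. Apoa1, Ttr and Fga were dim on every array of both fractions. Alb, also removed by the filter, was bright on 2 Fr.A arrays. Among 9 stromal and endothelial markers Kdr, which encodes a receptor for vascular endothelial growth factor, rose by 1.80 and 2 fell.

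**Figure D3:**
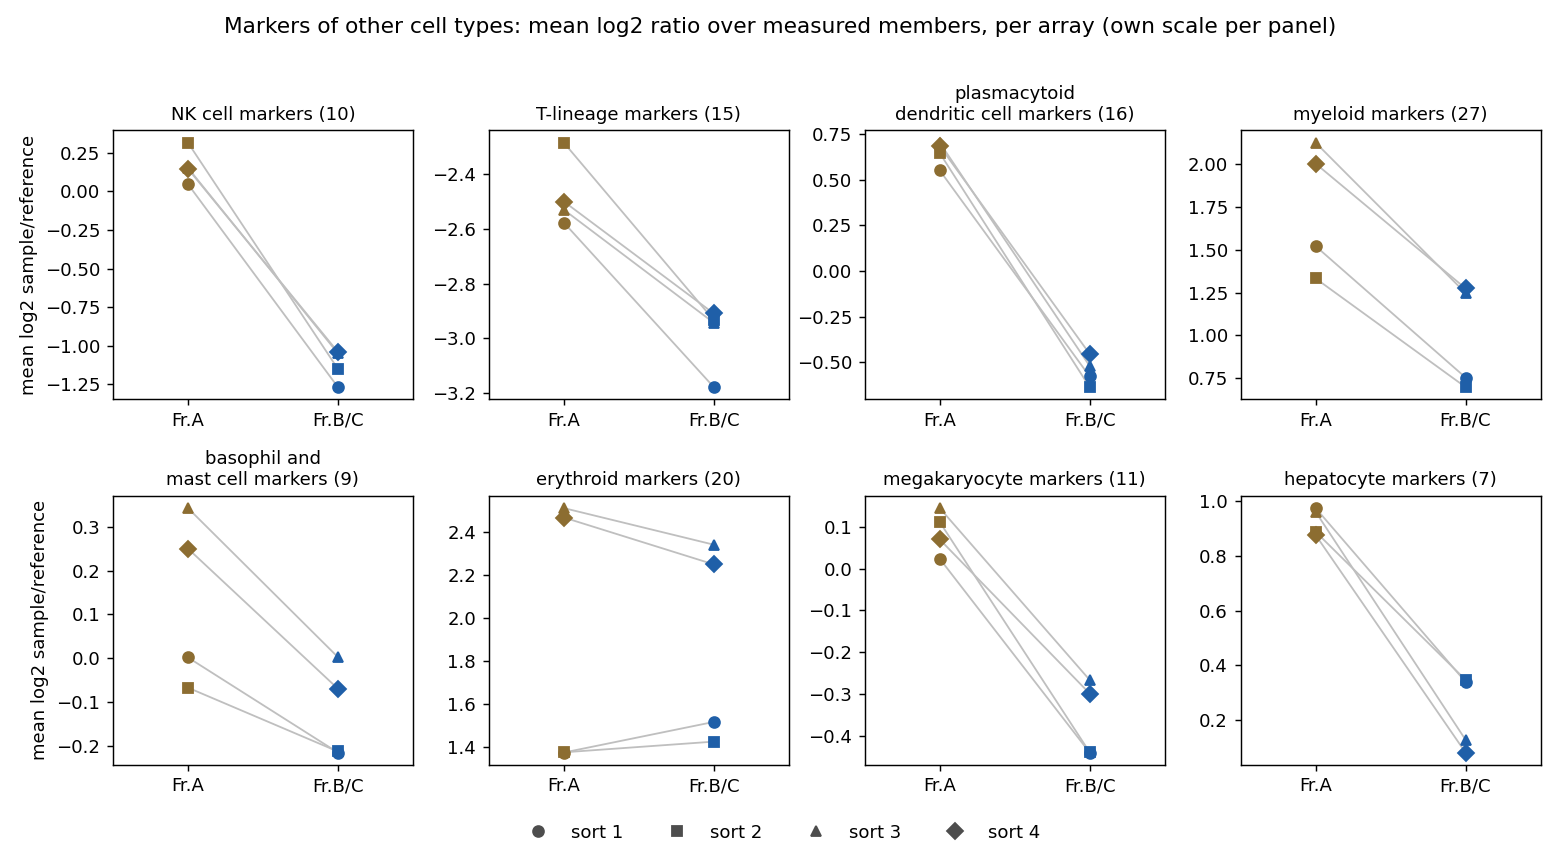
Mean log2 ratio over the measured markers of 8 other cell types on each fetal liver array, with the number of markers in brackets. Symbols are arrays, grey lines join the samples of a sort, and each panel has its own scale. NK, T-lineage, plasmacytoid dendritic and myeloid means fell from Fr.A to Fr.B/C in all 4 sorts, while the erythroid means of sorts 3 and 4 lay above those of sorts 1 and 2 in both fractions.

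Genes outside the lists gave most of the largest changes. The 12 highest rises, among genes that moved the same way in all 4 sorts and were bright in the higher fraction, were led by Alpl. This gene of tissue-nonspecific alkaline phosphatase went from -3.19, -3.55, -3.12 and -3.13 to 0.49, 0.37, 1.52 and 1.33, a rise of 4.18 (SE 0.15, adjusted p = 8.50e-10). Enpep, which encodes BP-1, a surface antigen used in the Hardy scheme, rose by 3.76. Since the gates are not stated, the rise of Enpep may be set by the sort. Jhy rose by 3.67, Myom2 by 3.27, Smtnl2 by 3.20, Slamf7 by 3.19, the adaptor gene Sit1 by 3.17, Fbxl12 by 3.03 and Ndrg1 by 2.74. Pgm5 (3.84), Clic6 (2.85) and Trib2 (2.76) rose too, but a second probe of each gave 0.57, 0.31 and 0.84.

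The 12 largest falls took in Runx2, Cd34, Ccr9, Ly6d and Ccnd1, described above. The others were Slc35d3 (-3.81), Nsg2 (-3.67), the chemokine gene Ccl9 (-3.66), Depp1 (-3.63), the purine receptor gene P2ry13 (-3.62), Rnase6 (-3.57) and Ly86, the partner of RP105 (-3.46). Slc35d3 read 3.62, 3.25, 3.58 and 3.70 in Fr.A and -0.48, -0.36, -0.16 and -0.07 in Fr.B/C. The fractions were far apart on every array.

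The fetal liver step was then set against the same step in bone marrow, through the difference between the 2 log2 fold changes. It passed for 3496 genes (17.3%), higher in fetal liver for 1888 (9.35%) and lower for 1608 (7.96%). The number fell to 403 with the array pairs averaged, so that test is given beside the genes named. Probes were kept by their brightness in fetal liver, and none was required in bone marrow. The bone marrow change of a probe that is dim there is shrunk by the offset on the intensities. The part of this in the tissue differences was not tested. The cytokine feedback genes rose more in fetal liver. Bone marrow gave 0.82 for Socs2, -0.01 for Cish, -0.30 for Socs3 and -0.42 for Pim1. The fetal liver changes exceeded these by 1.70, 1.62, 1.74 and 0.93 (adjusted p = 5.96e-06, 0.000191, 1.45e-05 and 0.00150). With the array pairs averaged the adjusted p-values were 0.00573, 0.0242, 0.00888 and 0.0700, so that Pim1 no longer passed.

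Several pro-B genes rose less in fetal liver. Igll1 rose by 0.59 against 1.81 in bone marrow, a difference of -1.23 (adjusted p = 0.000330, and 0.0255 with pairs averaged). Its fetal liver probe was near background in Fr.A, and with the processed signals the difference was -1.21. Id3 rose by 1.73 against 2.91, a difference of -1.18 (adjusted p = 5.05e-05, and 0.0174). Lig4 rose by 0.56 against 1.71, a difference of -1.15 (adjusted p = 0.000414, and 0.0383). Grb7, an adaptor gene, rose by 1.95 against 4.55 (adjusted p = 0.00794 with pairs averaged). The smaller differences of Cd79a (-0.67), Vpreb2 (-0.81) and Irf4 (-0.68) passed only with single arrays (adjusted p = 0.172, 0.165 and 0.115 with pairs averaged). For Lef1 the difference was -0.02 and did not pass (adjusted p = 0.970).

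Falls were deeper in fetal liver for several genes. Runx2 gave -5.17 in fetal liver and -2.94 in bone marrow, and Ccnd1 -3.28 and -1.07 (differences of -2.24 and -2.21, adjusted p = 0.00870 and 0.00511 with pairs averaged). Igf2bp3 fell by 1.06 in fetal liver and rose by 0.94 in bone marrow, a difference of -1.997 (adjusted p = 1.45e-05, and 0.00866 with pairs averaged). Rasgrp3 fell by 0.72 in fetal liver and rose by 1.61 in bone marrow (adjusted p = 0.00511 with pairs averaged). Maf gave -1.46 and 1.01 (adjusted p = 0.00511), but its second probe gave 0.08 in fetal liver. Rab6b did not fall but rose less in fetal liver, by 0.74 against 2.96 (adjusted p = 0.00511), with 0.10 in fetal liver from a second probe. Other falls were shallower in fetal liver. Cox6a2 gave -2.58 in fetal liver and -4.88 in bone marrow (adjusted p = 0.00565). Hmga2 gave -2.29 and -4.08 (adjusted p = 0.00565 with pairs averaged), but the sign of its difference turned with the mean of all probes.

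**Figure D4:**
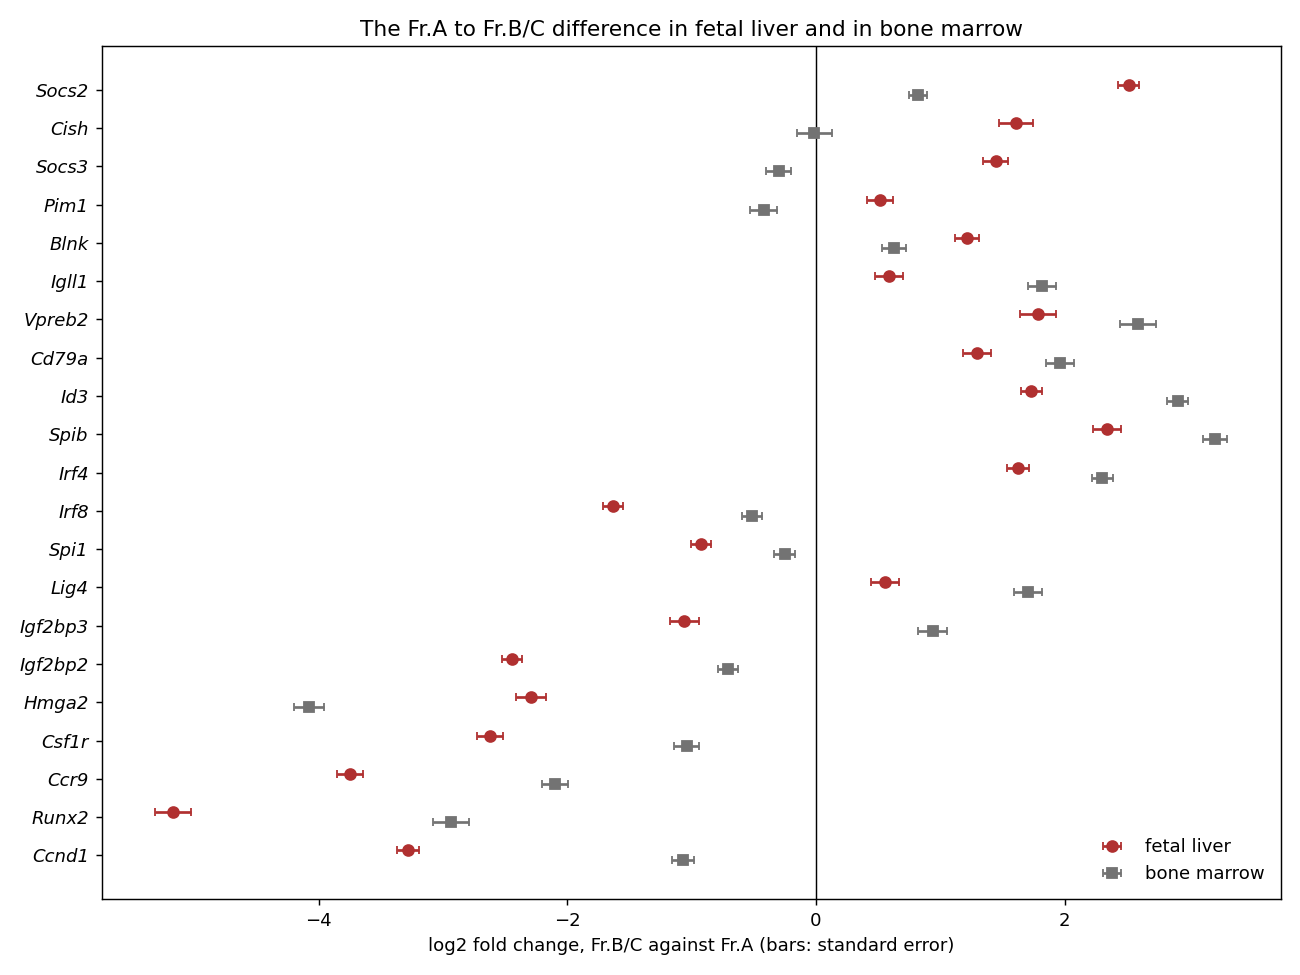
Log2 fold change of Fr.B/C against Fr.A for 21 genes in fetal liver (circles) and in bone marrow (squares). Bars give the standard error of the model over 4 sorts, or 3 for Socs2 and Spib in fetal liver. The spread behind the bars was estimated from both tissues together. Cish, Socs3 and Pim1 lie above 0 in fetal liver and at or below 0 in bone marrow, while Igf2bp3 lies below 0 in fetal liver and above it in bone marrow.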

How the data were processed

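Scanner files of 16 arrays were used. Per the file headers they hold mean and background signals of both dyes as intensity values, written by Feature Extraction 8.5.1.1. The authors also deposited a table of log2 ratios, centred near 0 (array medians -0.0073 to 0.0202), which correlated with the ratios used here at 0.930 to 0.951 and ran as sample over reference. The submitters' processing notes name limma, and no source used here says how the table was made. The deposited scanner files also give dye-normalised log10 ratios of red to green, which were not used here.

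Here intensities were corrected with normexp (offset 50) and normalised by loess in limma 3.58.1 (R 4.3.3), turned to sample over reference, and averaged per probe without control spots or outlier spots. The offset shrinks the changes of dim genes. A probe was kept if well above background on at least 3 of 4 arrays of either fetal liver fraction and usable on at least 12 arrays (24975 of 41174). The brightest kept probe stood for a gene. RefSeq accessions, symbols or clone names gave symbols for 12771 of 20194 genes tested.

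The limma model held 8 sorts as a replicate block and a Fr.B/C term for each tissue, on all 16 arrays with 6 residual degrees of freedom. The labels' protocols state that a sort gave 1 sample of each fraction. Same-numbered fetal liver arrays deviated together from the means of their fractions (r = 0.30, 0.47, 0.47 and 0.35). They also share dye and scan session, so these values cannot show a shared sort. The block also takes up dye and scan session. All adjusted p-values are from limma with Benjamini-Hochberg adjustment over all genes. A bound ("at least") sets the bright group's mean channel against a floor per array, the lowest signal well above background or that of the dim probe if higher, after loess and Aquantile, and is open to dye bias. For a saturated probe it uses the saturated value. Where the fold of the mean ratios was smaller, that fold is printed.

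Lists held 637 genes, of which 539 were measured, 63 were below the filter and 35 had no named probe. Genes were named by rule: the 12 highest and 12 lowest changes that were bright and of one sign in all 4 sorts, measured members of 6 B-lineage lists, up to 4 of each other list with the smallest adjusted p, the Lin28b genes and the 5 extremes on each side of the tissue difference. The text names a part of them, and some are not reported here. Members, lists and rule were chosen with earlier results of these data known. The fit was tested on simulated data. Alternatives are given in the closing section.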

Additional observations from a re-analysis of the deposited data

Results flagged for a closer look

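The Fr.A to Fr.B/C difference was not the same in fetal liver and bone marrow for 69 of the named genes, by limma's test of the difference between the tissues' log2 fold changes (Benjamini-Hochberg adjusted p under 0.05). Each value is the fetal liver change minus the bone marrow change. By at least 1 on the log2 scale it was positive for Cd163l1 (2.41), Pgm5 (2.33), Cox6a2 (2.30), Alpl (1.89), Clic6 (1.87), Hmga2 (1.78), Socs3 (1.74), Socs2 (1.70), Cish (1.62), Itgb7 (1.51), Ndrg1 (1.49), Cd7 (1.16). It was negative by as much for Grb7 (-2.59), Maf (-2.47), Rasgrp3 (-2.33), Runx2 (-2.24), Rab6b (-2.23), Ccnd1 (-2.21), Igf2bp3 (-1.997), Ccl9 (-1.84), Igf2bp2 (-1.74), Ccr9 (-1.65), Csf1r (-1.58), Nsg2 (-1.56), Fcgr3 (-1.55), Ly86 (-1.25), Igll1 (-1.23), Irf9 (-1.19), Id3 (-1.18), Lig4 (-1.15), Irf8 (-1.12), Ifi30 (-1.10), Dlk1 (-1.04), Rnase6 (-1.03). Smaller positive differences were those of Cpa3 (0.98), Tcf7 (0.94), Pim1 (0.93), Id2 (0.87), Kdr (0.85), Myom2 (0.85), Gata3 (0.83), Bcl2 (0.68), Afp (0.67), Gbp2 (0.63), Nfe2 (0.62), Cdkn2c (0.59), Blnk (0.59), Hes5 (0.51), Nkg7 (0.49). Smaller negative ones were those of P2ry13 (-0.94), Ifi47 (-0.93), Il2rg (-0.88), Spib (-0.87), Tgtp1 (-0.85), Vpreb2 (-0.81), Siglech (-0.79), Prkcb (-0.76), Hoxa7 (-0.74), Itgax (-0.70), Irf4 (-0.68), Spi1 (-0.67), Cd79a (-0.67), Pou2af1 (-0.57), Slamf7 (-0.55), Enpep (-0.54), Ccnd2 (-0.47), Smtnl2 (-0.45), Prkdc (-0.42), Blk (-0.40). The fetal liver probes of Cd163l1 and Siglech were not well above background on any Fr.B/C array, so their fetal liver falls are bounds and these differences have no exact size. With the array pairs averaged 32 of the 69 passed, and without the replicate block 53 did. The sign turned for Hmga2 with the mean of all probes (-0.26), for Itgax with the processed signals (1.15) and the authors' deposited table (0.31), and with the processed signals for Dlk1 (0.59) and Clic6 (-0.75).

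In 9 of 247 groups of 4 arrays 1 array stood apart, its gap to the nearest array, as a share of the group's range, exceeding the critical value of Dixon's test. Chance alone gives about 1 in 20 such groups. In Fr.A the share of the range was 0.966 for Pou2af1, 0.913 for Cd79b, 0.904 for Vpreb3, 0.875 for Btk, 0.849 for H2-DMb1, 0.848 for Ccr9, 0.845 for Alpl and 0.831 for Blk. In Fr.B/C it was 0.904 for Tcf7.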

How the results depend on the processing

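Of 125 named genes 122 passed, and 107 of these kept direction and call in all 23 alternatives that gave a value. Il3ra and Csf2rb were not among the 125. All 122 kept their direction. Lin28b, which did not pass, turned to -0.018 with sorts 3 and 4 only. Same-numbered arrays were taken as 1 sort. Without this replicate block 5087 genes passed in place of 7218, and the tissue difference passed for 1522 in place of 3496. Array pairs averaged gave 3449 and 403. The pairs as a random block gave 4786 and 1338. Cy5 arrays alone gave 2849 and 242, and Cy3 arrays alone 2699 and 407. Leaving out 1 sort gave 5561 to 7200 and 2258 to 3843. The tissue difference passed for 1380 genes with median centring, 1486 with scaling and 2317 with processed signals. Chosen after seeing the data, sorts 1 and 2 alone gave 4639 and 1766, and sorts 3 and 4 alone 7540 and 5293. The fit on fetal liver arrays only gave 6353 and gives no tissue difference. Scan session, constant within a sort, was not run as a separate block. The number of arrays, saturation of bright probes and the offset on dim ones limit the precision.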
